A study of Mus musculus with 4 samples.

Results

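Genomic imprinting leaves 1 parental copy of a gene active and the other silent. This account describes 10 imprinted genes outside the large imprinted cluster on distal chromosome 7: Grb10, Meg3, Igf2r, Airn, Impact, Peg3, Snrpn, Mest, Plagl1 and Gnas. They were chosen by name, with earlier results of these data known, from 33073 autosomal protein-coding and lncRNA genes in the gene table. Of the 10 genes, 8 are protein-coding and 2 (Meg3 and Airn) are lncRNAs. Peg3 and Snrpn also lie on chromosome 7, in its proximal and central parts. H3K9me3, trimethylation of lysine 9 on histone H3, was mapped by native ChIP-seq, in which chromatin is cut with micrococcal nuclease without cross-linking. The CD8+ T cells came from C57BL/6 mice labelled wild-type. They were naive (day 0) or had been kept for 3 days with anti-CD3, anti-CD28 and IL-2 (day 3). Each day is represented by 1 ChIP library, as a list of significant islands (runs of enriched windows), so every difference below lies between 2 libraries and has no test. An input library was described for each day and was not analysed here, so no input background stands beside the values. Islands over the gene bodies and 100 kb on each side, a stretch called the window of a gene below, numbered 26 of 19989 on day 0 and 48 of 47553 on day 3.

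H3K9me3 is a mark of silent chromatin. At imprinting control regions it is known to sit on the DNA-methylated parental copy, where the zinc finger protein ZFP57 binds a methylated sequence and, through TRIM28 and the methyltransferase SETDB1, maintains the mark. The parental copies could not be told apart in these lists, which give reads per island with no allele. An island list does not measure RNA either, so the labelled cell type could not be checked from it. The T cell genes Cd8a, Cd8b1, Cd3d, Cd3e and Cd3g had no island in the body on either day, and of 6 marker genes of other cells Cd4 had one on day 0 and Ms4a1 on day 3. A body island was found for 20.6% of all autosomal genes on day 0 and 25.1% on day 3. The median body was 10.9 kb long for the T cell genes and 12.0 kb for the others. Such small counts in short genes set no cell type apart.

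The read numbers are those of the deposited lists and are not scaled for depth. The day 0 islands held 3402787 reads together and the day 3 islands 10423178, and the total of mapped reads was not known. In the day 0 list the median island held 34.1 reads per kb, and in the day 3 list 52.9. The least dense island of day 3 held 34.1 reads per kb, and 50.4% of the day 0 list fell short of that. Where no island is listed, the mark may still have been present below the limit for calling. Intervals given for reads are exact 95% Poisson intervals and cover counting error only.

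Islands lay in the bodies of 6 of the 10 genes on day 0 (Grb10, Meg3, Igf2r, Impact, Snrpn and Plagl1) and of 3 on day 3 (Grb10, Snrpn and Plagl1). Among all autosomal genes of the table, 20.6% had an island in the body on day 0 and 25.1% on day 3. Among the 14904 genes with bodies as long as those described here (15.0 to 467.7 kb), the shares were 36.4% and 43.7%. Meg3, Igf2r and Impact carried a body island on day 0 and none on day 3, which held for 7.53% of all genes and 10.9% of the genes in that length range. Grb10, Snrpn and Plagl1 carried one on both days (13.1% of all genes, 25.5% in the length range), and no member gained its first on day 3 (12.1% and 18.2%). Coverage was higher on day 3 for 2 bodies, Grb10 and Plagl1 (20.3% and 34.3%), and lower for 4, Meg3, Igf2r, Impact and Snrpn (12.2% and 20.1%). Airn, Peg3, Mest and Gnas had no island in the body on either day. Summed over the bodies, 43.4 kb was covered on day 0 and 41.1 kb on day 3. Over the whole autosomes the covered length was 1.98 times as long on day 3. The sum over the bodies was thus nearly equal on the 2 days while the lists grew, but its direction turned with the choice of islands. With islands of at least the median density of their list, it was 17 kb on day 0 and 29.4 kb on day 3. With a limit of 34.1 reads per kb, the lowest density of day 3, it was 17 kb and 41.1 kb. That limit removed islands from the day 0 list alone, so it could only shift the difference toward day 3. With it 3 members had a body island on day 0, namely Grb10, Igf2r and Impact.

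The windows of the genes held more islands than the bodies. On day 0, 9 of 10 windows had an island (72.0% of all genes, 78.7% in the length range), and Peg3 had none. On day 3, 8 of 10 had one (72.2% of all genes, 78.7% in the length range), and Igf2r and Airn had none. A window with an island on day 0 and none on day 3 was found for 12.0% of all genes and 9.96% in the length range. Coverage of the window was higher on day 3 for 7 of the 10 genes, against 49.1% of all genes and 53.6% in the length range, and lower for Igf2r, Airn and Gnas. Islands took up 125.6 kb (4.54%) of the merged windows on day 0 and 190.0 kb (6.87%) on day 3, a ratio of 1.51, while autosomes were covered over 4.08% and 8.07%. With the day 3 list reduced to its 19989 islands with the most reads, the day 3 sum was 101.6 kb, so that the direction turned. The median window of all genes was covered over 2.93% on day 0 and 3.42% on day 3, and the median over the 10 windows was 4.13% and 6.59%. The windows of Grb10, Mest and Plagl1 were the most covered on both days.

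**Figure D1:**
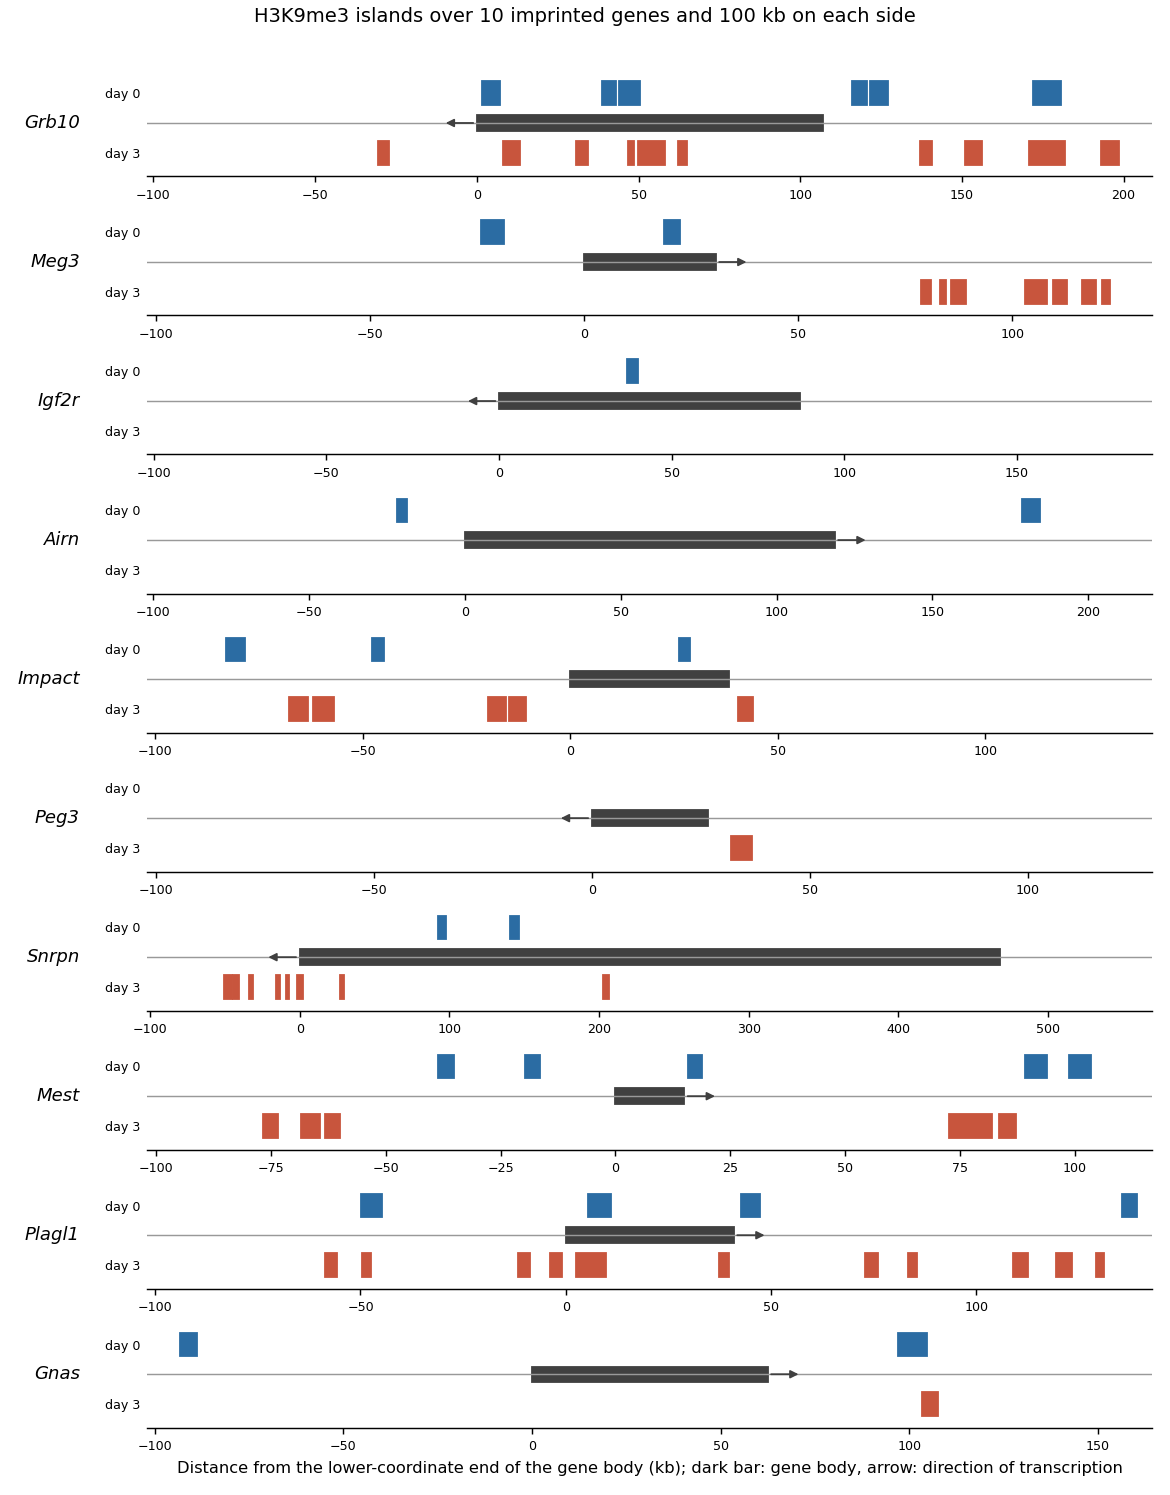
Islands of day 0 (blue, above the line) and day 3 (red, below the line) over each gene body (dark bar, with an arrow in the direction of transcription where the promoter table gives it) and 100 kb on each side, in kb from the lower-coordinate end of the body. Meg3, Igf2r and Impact have a body island in blue and none in red, Igf2r and Airn have no red island at all, and the 7 red islands of the Meg3 window lie together beyond its end.

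Start sites were examined because some known imprinting control regions lie at or near such sites. The control regions of the 10 genes were not located here, so the stretches examined below may not include them. The RefSeq promoter table (GRCm38.p6) held 19 start sites for 9 of the genes, all but Impact. None of the 19 windows from 250 bases before to 50 bases after a start site was touched by an island on either day. Across 31396 autosomal start sites, 2.46% were touched on day 0 and 3.28% on day 3. At such shares the count of 0 among 19 is not a result about these genes. The closest island was that of day 3 at Plagl1, whose start site (chromosome 10, 13090832) lay 5.37 kb from an island on day 0 and 0.832 kb from one on day 3. The start site of Snrpn at 60005199 came next on day 3 with 4.00 kb, against 69.6 kb on day 0, followed by that of Peg3 with 5.38 kb, against 320.0 kb. Over the 19 start sites the median distance was 18.6 kb on day 0 and 59.9 kb on day 3. Over all start sites it was 50 and 40 kb. These 19 values are not independent, since several start sites share a gene and an island. In the windows the shortest island was 2.8 kb long on day 0 and 1.4 kb on day 3. Of the whole lists, 0.855% and 9.03% were 2 kb or shorter. Short islands were thus rare in both lists, above all on day 0.

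The 250 bases before 5 of these start sites are printed below, for different reasons. Plagl1 and Snrpn had the start sites closest to an island on day 3, Plagl1, Mest and Meg3 hold the core letters known for ZFP57, and Grb10, which lacks them, had more kb under islands in its body than the other 9 genes on both days. Capitals mark TGCCGC or its reverse complement GCGGCA, which were searched on both strands. They are credited to RefSeq, GRCm38.p6, and run 5′ to 3′ on the strand of the gene. The stretch of Plagl1 is chr10:13090582-13090831 (plus strand), that of Mest chr6:30737803-30738052 (plus), that of Meg3 chr12:109540746-109540995 (plus), that of Grb10 chr11:12037421-12037670 (minus) and that of Snrpn chr7:60005200-60005449 (minus).
Plagl1: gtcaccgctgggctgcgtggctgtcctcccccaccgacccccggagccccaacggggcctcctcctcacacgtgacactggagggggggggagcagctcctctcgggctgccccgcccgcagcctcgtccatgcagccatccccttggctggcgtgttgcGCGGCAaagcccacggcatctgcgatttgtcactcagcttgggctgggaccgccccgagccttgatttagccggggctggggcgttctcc
Mest: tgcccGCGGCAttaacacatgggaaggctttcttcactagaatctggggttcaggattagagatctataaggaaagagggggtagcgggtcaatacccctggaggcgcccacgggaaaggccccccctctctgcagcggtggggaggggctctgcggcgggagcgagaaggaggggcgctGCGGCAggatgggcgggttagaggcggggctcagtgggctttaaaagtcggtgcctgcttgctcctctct
Meg3: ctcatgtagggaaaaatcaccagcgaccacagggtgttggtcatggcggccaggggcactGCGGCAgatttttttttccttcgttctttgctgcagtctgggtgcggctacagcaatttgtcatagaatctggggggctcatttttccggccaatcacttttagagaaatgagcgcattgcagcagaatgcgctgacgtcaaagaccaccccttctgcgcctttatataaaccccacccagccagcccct
Grb10: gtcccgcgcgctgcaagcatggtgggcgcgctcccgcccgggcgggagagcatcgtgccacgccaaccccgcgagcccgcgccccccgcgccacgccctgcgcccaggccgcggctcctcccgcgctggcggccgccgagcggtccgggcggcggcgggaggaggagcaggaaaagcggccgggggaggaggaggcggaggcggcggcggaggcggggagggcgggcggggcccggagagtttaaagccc
Snrpn: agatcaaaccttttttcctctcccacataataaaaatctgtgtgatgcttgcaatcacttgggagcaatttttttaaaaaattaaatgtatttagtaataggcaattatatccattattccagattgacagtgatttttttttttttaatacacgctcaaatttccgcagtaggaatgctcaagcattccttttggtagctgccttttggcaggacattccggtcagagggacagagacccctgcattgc

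The letters occurred before 4 of the 19 start sites, in 3 genes: 2 start sites of Mest and 1 each of Plagl1 and Meg3. The Mest start sites lie 3 bases apart, and their overlapping stretches each held 2 separate matches. The stretches of Plagl1 and Meg3 held 1 match each. Of all 31396 stretches of that length, 8.7% held them. A match is a description of the sequence and no evidence of binding, and the absence of a match concerns these 250 bases alone. The Grb10 stretch held 40 CpG dinucleotides, that of Plagl1 19, Mest 14, Meg3 10 and Snrpn 3, against a median of 6 (quartiles 2 and 16) over all stretches. No island touched any of the 19 start site windows, so CpG-rich and CpG-poor stretches could not be compared by their islands.

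**Figure D2:**
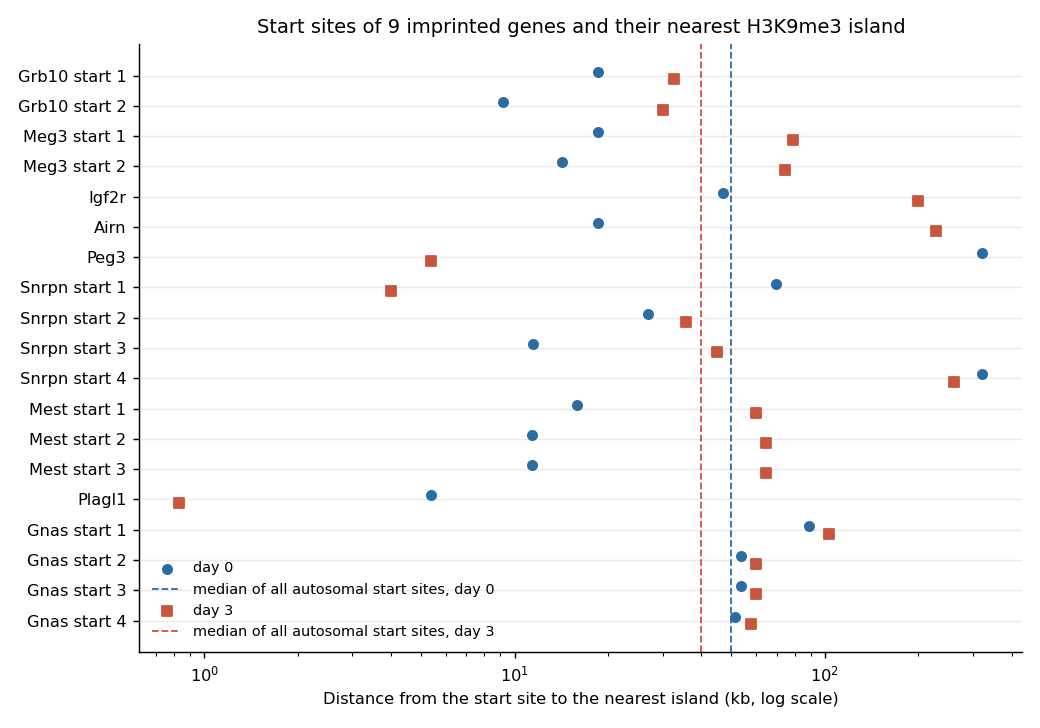
Distance in kb (log scale) from each of the 19 start sites to the nearest island on day 0 (blue circles) and day 3 (red squares), with dashed lines at the medians of all autosomal start sites. Plagl1 on day 3 has the shortest distance, 0.832 kb. All start sites of Grb10, Meg3, Igf2r, Airn, Mest and Gnas are nearer to an island on day 0 than on day 3. Those of Peg3 and Plagl1 are nearer on day 3, and those of Snrpn are divided.

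Among the genes expressed from the maternal copy in most tissues, Grb10 was the most covered. It encodes an adaptor protein that restrains insulin and growth factor signalling. Its body (mm10 chromosome 11, 11930499 to 12037428, minus strand) held 3 islands with 16.2 kb (15.2% of the body) on day 0 and 5 islands with 22.2 kb (20.8%) on day 3. The day 0 islands held 31.7, 36.4 and 37.7 reads per kb. Those of day 3 held 56.7, 56.1, 67.0, 54.2 and 51.2 reads per kb in order of coordinate. The first 42.0 kb from the 5′ end held no island on either day. In the middle of the gene the day 0 island from 11974601 to 11981000 shared 2.8 kb with a pair of day 3 islands, and the other body islands of the 2 days did not overlap. Upstream of the gene, an island of 8.4 kb on day 0 (12102601 to 12111000, 297 reads, interval 264 to 333) lay entirely within one of 11 kb on day 3 (12101401 to 12112400, 575 reads, interval 529 to 624). This upstream island was the longest in any of the windows on both days. With the day 3 list reduced to 19989 islands, the body of Grb10 was covered over 17.6 kb on day 3, an excess of 1.4 kb instead of 6.0 kb.

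Meg3, a maternally expressed lncRNA gene of the Dlk1-Dio3 domain (chromosome 12, 109540996 to 109571729, plus strand), had 1 island of 3.8 kb in its body on day 0, which covered 12.4% of it. This island (109559601 to 109563400) held 126 reads (interval 105 to 150) or 33.2 reads per kb, below the lowest density in the day 3 list, so that with a limit of 34.1 reads per kb Meg3 had no body island on either day. On day 3 the body was free of islands and the nearest one lay 48.1 kb away. Downstream, 7 islands with 21.0 kb inside the window followed each other on day 3, where day 0 had none. Of these, 6 lay in Rian, the lncRNA gene that hosts a cluster of small nucleolar RNAs and is thought to continue from Meg3. Rian was covered over 19.2 kb (33.2%) on day 3 and not on day 0. The densest island of all windows was among them (109624201 to 109625600, 116 reads, interval 95.9 to 139, 82.9 reads per kb), denser than 99.5% of the day 3 list. Its length of 1.4 kb was also the shortest. The excess of day 3 in the Meg3 window came from this downstream stretch: with flanks of 50 kb, islands took up 9.2 kb on day 0 and 1.93 kb on day 3. With the reduced day 3 list, Rian kept 5.2 kb.

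Igf2r encodes the receptor that clears insulin-like growth factor 2 and is expressed from the maternal copy. Airn, a lncRNA made from the paternal copy, starts inside Igf2r, runs against it and silences it in many tissues. The bodies (chromosome 17, 12682406 to 12769706 and 12741311 to 12859884) overlap by 28.4 kb. A single island of 3.4 kb (12719401 to 12722800) lay in Igf2r on day 0, 46.9 kb from its 5′ end and 18.5 kb before the start of Airn. It held 131 reads (interval 110 to 155) or 38.5 reads per kb, more than 85.9% of the day 0 list. Airn itself had no island on either day. On day 3 the nearest island lay 199.1 kb from the body of Igf2r and 108.9 kb from that of Airn. The other day 0 island in the Airn window lay over Tcp1 and Acat3 and was among the least dense of its list, with 27.4 reads per kb (percentile 1.02). The island of Igf2r was kept with a limit of 34.1 reads per kb, which on day 0 nearly equals the median of the list. Reduction of the day 3 list left day 0 unchanged.

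Gnas encodes the stimulatory G protein alpha subunit, is imprinted in some tissues, and has several start sites with different parental expression. No island lay in its body (chromosome 2, 174284320 to 174346744) on either day. The nearest island lay 34.7 kb beyond its end on day 0 (7.6 kb long, 36.2 reads per kb) and 40.9 kb beyond it on day 3 (4.4 kb long, 55.7 reads per kb), and the islands shared 1.4 kb. A second day 0 island lay 88.7 kb before the gene. Islands took up 12.2 kb of the window on day 0 and 4.4 kb on day 3. With flanks of 200 kb they took up 12.2 and 17 kb.

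Among the genes expressed from the paternal copy, Plagl1 had the largest share of its body under islands on both days, although Snrpn had more kb on day 0 and a limit of 34.1 reads per kb left Plagl1 with none on that day. It encodes a zinc finger transcription factor that restrains growth, and the lncRNA gene Hymai starts close to it. The body of Plagl1 (chromosome 10, 13090832 to 13131694, plus strand) held 1 island of 5.6 kb (13.7% of the body) on day 0 and 2 islands with 9.8 kb (24.0%) on day 3. The day 0 island (185 reads, interval 159 to 214, 33.0 reads per kb) ran from 5.37 to 11 kb after the start site. An island of day 3 (402 reads, interval 364 to 443, 54.3 reads per kb) ran from 2.37 to 9.77 kb after it, and the 2 shared 4.4 kb. On day 3 a further island of 3.0 kb ended 0.832 kb before the start site, so that the start lay in a gap between islands. Hymai was covered over 2.7 kb (53.4%) on day 3 and not on day 0. The whole window went from 4 islands with 18.8 kb on day 0 to 11 islands with 35.8 kb on day 3, and to 11 kb with the reduced day 3 list. The day 0 island in Plagl1, too, was sparser than the least dense day 3 island of the list, so that a common limit of 34.1 reads per kb left the body uncovered on day 0.

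Snrpn encodes a spliceosomal protein of neurons and marks the domain of the Prader-Willi and Angelman syndromes. In the gene table it is 467.7 kb long (chromosome 7, 59982495 to 60450177, minus strand), because distant upstream exons are counted, and it lies within Snhg14, the long paternal transcript of this domain. The body held 2 islands with 11.6 kb (2.48%) on day 0 and 3 islands with 9.11 kb (1.95%) on day 3, in different places. The day 0 islands held 32.3 and 26.7 reads per kb, and the latter ranked at percentile 0.408 of its list. The day 3 islands held 50.9, 46.3 and 49 reads per kb. Both day 0 islands fell short of the least dense island of the day 3 list. With islands of at least 34.1 reads per kb, 0 kb remained on day 0 and 9.11 kb on day 3. With the reduced day 3 list, 11.6 kb stood on day 0 and 0 kb on day 3. Beyond the 3′ end, 18.1 kb of the flank was covered on day 3 and none on day 0.

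Impact, which encodes a regulator of the protein kinase GCN2 and thereby of translation, had 1 body island on day 0 (chromosome 18, 12980801 to 12983600, within a body from 12954690 to 12992950). It held 120 reads (interval 99.5 to 143) or 42.9 reads per kb, denser than 96.5% of the day 0 list. At 2.8 kb it was one of the shortest day 0 islands in the windows, together with one of the same length in the neighbouring gene Osbpl1a (43.9 reads per kb). The body had no island on day 3, when the nearest one lay 2.25 kb away. Osbpl1a, which encodes an oxysterol-binding protein, held 4 islands within the window on day 3 and 2 on day 0, none of which overlapped. In the window 10.2 kb lay under islands on day 0 and 21.8 kb on day 3. With islands of at least the median density of their list it was 10.2 and 4.0 kb. The body island of Impact, like that of Igf2r, stayed in the day 0 list with both density limits. These are nearly the same cut on day 0 (34.06 and 34.11 reads per kb), and the reduction of the day 3 list left day 0 unchanged.

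Mest, which encodes an enzyme of the hydrolase fold family, and Peg3, which encodes a zinc finger protein, had no island in the body on either day. On day 0 an island of 3.0 kb began 0.935 kb beyond the end of Mest (chromosome 6, 30733506 to 30748466), inside the neighbouring gene Copg2. It held 140 reads (interval 118 to 165) or 46.7 reads per kb, denser than 98.9% of the day 0 list. By length it ranked at percentile 7.87 of that list. No day 3 island was listed within 50 kb of Mest, and the nearest lay 57.7 kb away. Cep41, a centrosomal protein gene on the other side, held 1 island on day 0 and 3 on day 3 within the window. Copg2, which encodes a coat protein subunit of Golgi vesicles, had 12.4 kb (8.31%) under islands on day 0 and 31 kb (20.8%) on day 3. Islands took up 19.4 kb of the Mest window on day 0 and 24 kb on day 3, an excess that turned with the reduced day 3 list (17.4 kb on day 3). The window of Peg3 (chromosome 7, 6703892 to 6730462) had no island on day 0, and the nearest one lay 319.9 kb away. On day 3 an island of 4.8 kb with 51.3 reads per kb lay 5.34 kb upstream of Peg3 in Usp29, a ubiquitin protease gene that shares its control region. It lay below the median density of its list.

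**Figure D3:**
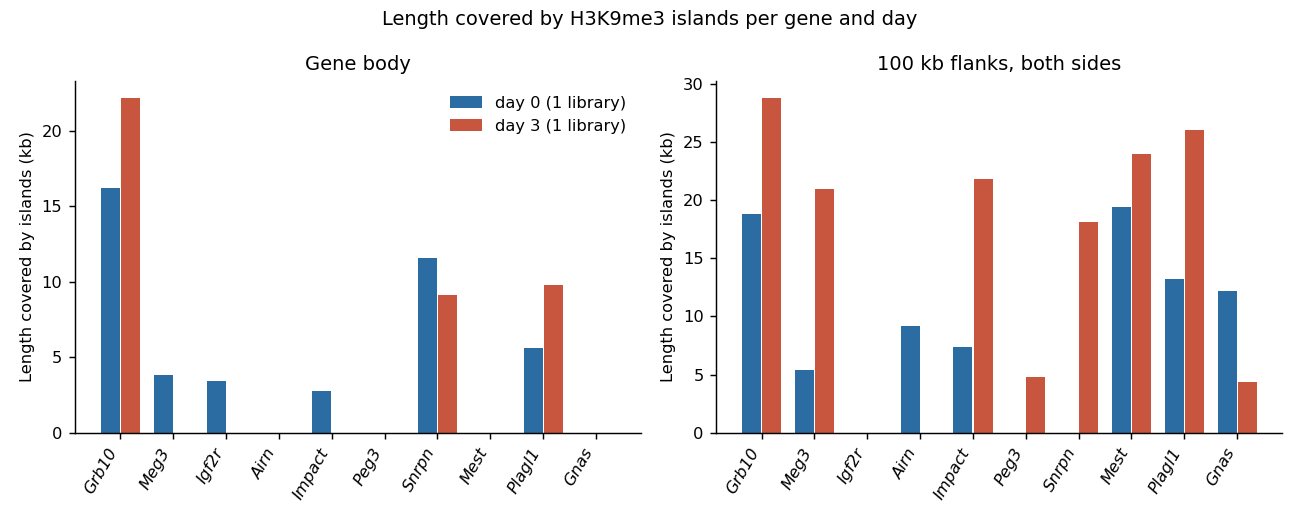
Length covered by islands (kb) in the gene body (left) and in both 100 kb flanks together (right) for each gene on day 0 (blue) and day 3 (red), 1 library per day. In the bodies, Grb10 and Plagl1 are higher on day 3 and Meg3, Igf2r, Impact and Snrpn on day 0, while the flanks are higher on day 3 for 7 of the 10 genes.

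Read densities in the 10 windows lay on both sides of the medians of the lists. On day 0 the 26 islands ranged from 26.7 to 46.7 reads per kb with a median of 35.6, and 16 lay above the median of the list. On day 3 the 48 islands ranged from 45.2 to 82.9 with a median of 53.2, and 26 lay above the median of the list. The islands described above with high density ranks were also short. By length, those of Copg2 beside Mest, Impact and Igf2r ranked at percentiles 7.87, 5.30 and 15.1 of the day 0 list. The densest island in Rian ranked at 1.49 of the day 3 list. Density was not compared at equal length. Of the 26 day 0 islands, 10 (38.5%) fell short of the lowest density in the day 3 list, compared with 50.4% of the whole list. The islands of the 2 days were mostly in different places. Of the 26 day 0 islands, 5 (19.2%) shared bases with the day 3 list, against 33.6% over the autosomes, and of the 48 day 3 islands 6 (12.5%) shared bases with the day 0 list, against 14.9%. All of these overlaps lay in the windows of Grb10, Plagl1 and Gnas. In the 6 overlapping pairs the day 3 island held 1.44 to 1.85 times the reads per kb of the day 0 island, with a median of 1.59, and the median over 7302 autosomal pairs was 1.57. Scaled by the reads inside islands of each list, the same 6 ratios were 0.470 to 0.605, so that the direction turned in each pair.

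**Figure D4:**
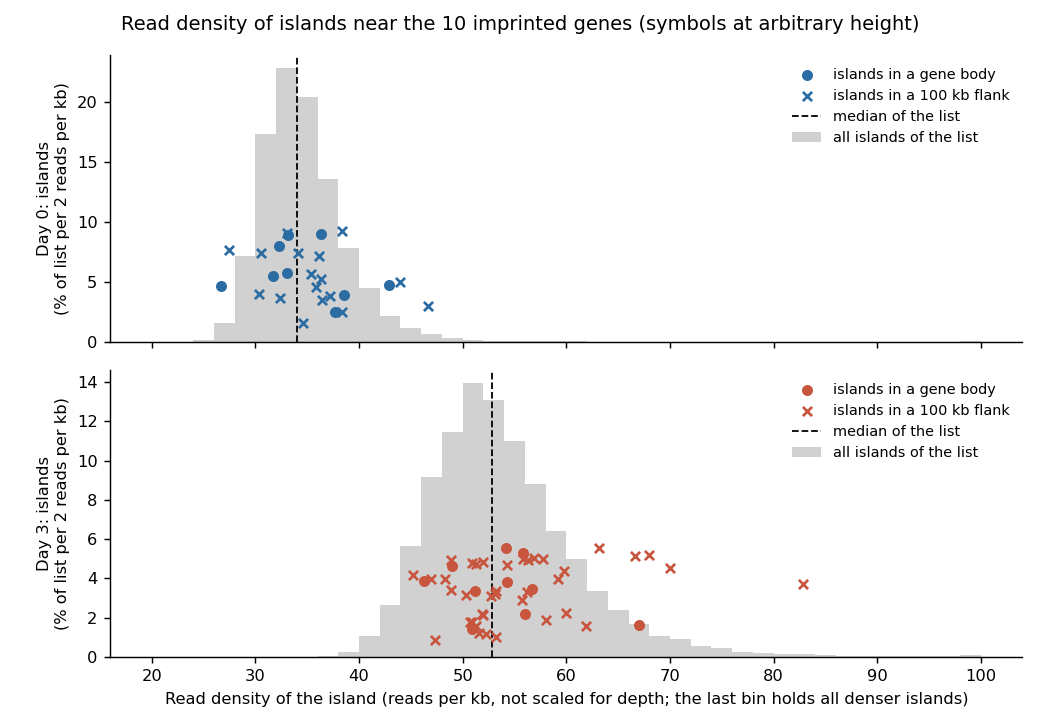
Read density (reads per kb, not scaled for depth) of islands in the gene bodies (circles) and 100 kb flanks (crosses) of the 10 genes, over the distribution of all islands of the day 0 list (top) and the day 3 list (bottom), with symbols at arbitrary height. The symbols spread on both sides of the dashed list medians of 34.1 and 52.9 reads per kb, and the densest, at 82.9, is the short island in Rian.

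Other imprinted genes were taken from lists of names, chosen with earlier results of these data known. Of 28 further genes of the same domains found in the table, 7 had a body island on day 0 and 11 on day 3, where all genes gave 20.6% and 25.1%. Genes in the length range of the 10 genes gave 36.4% and 43.7%, though some of the 28 bodies lie outside that range. The 28 genes are not separate from the 10. The only day 3 island in Hymai is also a body island of Plagl1, that in Snurf is one of Snrpn, and Snhg14 holds the islands of Snrpn. Ube3a stood apart by its values, for which it is described here. It encodes a ubiquitin ligase that is expressed from the maternal copy in neurons and from both copies in most other cells. Its body (chromosome 7, 59228750 to 59310837) had no island on day 0, and 10 islands covered 55.8 kb (68.0%) of it on day 3. These islands held 50.5 to 62.1 reads per kb. Among 9473 genes in the length range of the 10 genes that had no day 0 island, 19 (0.201%) were covered on day 3 at least as far. This share ranks Ube3a on the same value for which it was picked, so it is a description and no test. The excess in Ube3a was 49 kb with the reduced day 3 list and 35.8 kb with islands of at least the median density. Snhg14, the transcript known to run against Ube3a, overlaps it in the gene table and shares islands with it. Its 1177 kb held 17 kb of islands on day 0 and 86.3 kb on day 3. Atp10a, a neighbouring flippase gene, had 8.8 kb of islands on day 3 and none on day 0, but 0 kb on day 3 with the reduced list. Snurf, within Snrpn, had 1.91 kb on day 3 alone, and likewise none with the reduced list. Cpa4 (2.8 kb) and Ddc (3.5 kb) had islands on day 0 and none on day 3. With a limit of 34.1 reads per kb, or of the median density of each list, Cpa4 kept its 2.8 kb and Ddc had 0 kb on day 0 as well. Cobl (26.4 and 29.4 kb), Phactr2 (25.4 and 29.2 kb) and Slc22a3 (5.0 and 3.6 kb) held islands on both days, and for Cobl and Phactr2 the direction turned with the reduced list.

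Of 25 imprinted genes of other domains, 11 had a body island on day 0 and 12 on day 3. The shares were 20.6% and 25.1% over all genes, and 36.4% and 43.7% over genes in the length range of the 10 genes. Sfmbt2, a Polycomb-related gene, had 20 kb of islands, the serotonin receptor gene Htr2a 11.4 kb, the proteoglycan gene Dcn 7.0 kb and Rasgrf1 2.8 kb on day 3, and none on day 0. With the reduced day 3 list Rasgrf1 had 0 kb and Htr2a 3.8 kb, and with islands of at least the median density Dcn had 1.8 kb and Sfmbt2 9.2 kb. Smoc1 (12 kb), Commd1 (7.8 kb) and the potassium channel gene Kcnk9 (7.33 kb) were covered on day 0 and not on day 3. With either of these density limits Smoc1 and Kcnk9 had 0 kb on day 0 too, and Commd1 had 3.4 kb. Gab1, which encodes an adaptor protein, went from 17.6 kb on day 0 to 3.97 kb on day 3, and Herc3 from 13 to 6.6 kb, which became 7.0 and 6.6 kb with the limit of 34.1 reads per kb. Ppp1r9a (43 and 38.4 kb), Zdbf2 (10.6 and 8.0 kb), Calcr (10.6 and 11.6 kb), Trappc9 (8.2 and 19.2 kb), Asb4 (2.02 and 3.62 kb) and Jade1 (0.464 and 2.6 kb) also held islands on both days, and the direction of each turned under at least 1 choice of islands. In the distal chromosome 7 cluster, set beside these for comparison, 3 of 12 genes had a body island on day 0 and 2 on day 3. All genes gave 20.6% and 25.1%. In Cd81, 30.3% of the body lay under an island on day 0 and none on day 3. Kcnq1 (50.8 and 33 kb) and Kcnq1ot1 (23.7 and 27.3 kb) held islands on both days, and both directions turned under another choice of islands. The median body coverage was 0% on both days in these 3 lists, and 3.19% on day 0 and 0% on day 3 over the 10 genes. It was 0% on both days over all genes too, since 20.6% and 25.1% of them had a body island. The median body was 51.6 kb long for the 10 genes, and 25.5, 61.1 and 15.6 kb for the lists in the order given. With the limit of 34.1 reads per kb, 3 of the 10 genes had a body island on day 0.

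**Figure D5:**
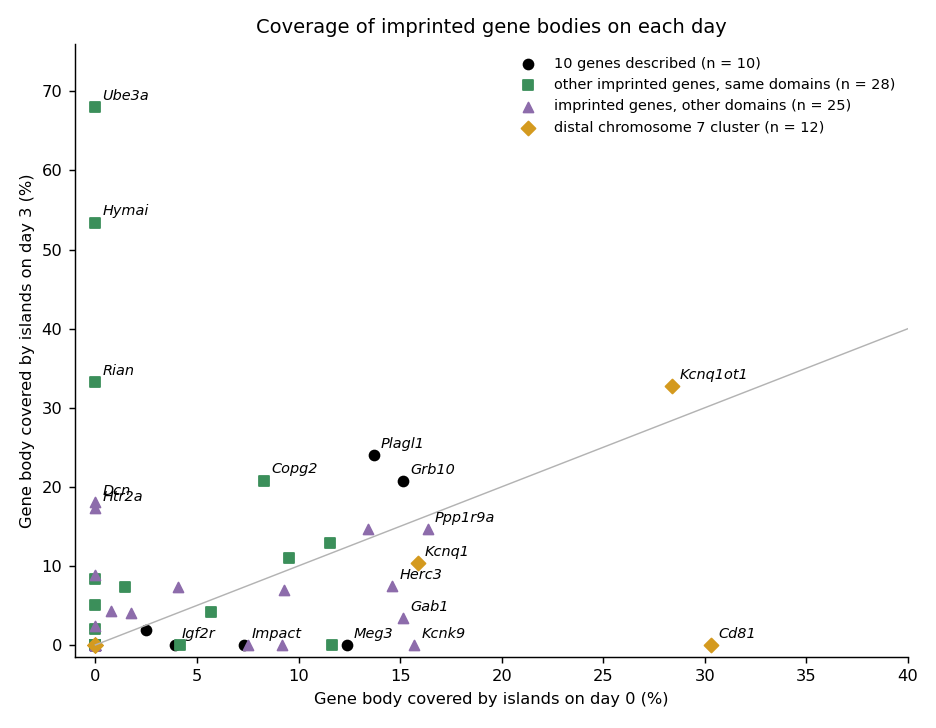
Share of each gene body covered by islands (%) on day 0 against day 3 for the 10 genes described and for 3 lists of other imprinted genes, with a grey line of equal coverage. Ube3a (0% and 68.0%), Hymai and Rian lie on the vertical axis, and Meg3, Igf2r and Impact lie on the horizontal axis.

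The genes whose body coverage on the 2 days was most like that of Grb10, among 3459 protein-coding genes of similar length, were Senp7 (15.4% and 20.7%), Stx17 (14.9% and 21.1%) and Abcb1a (15.4% and 21.1%). For Plagl1 they were Golph3l (13.8% and 24.0%), Myb (13.3% and 23.9%) and Togaram1 (13.6% and 24.9%). For Snrpn they were Prickle2 (2.68% and 2.03%), Grip1 (2.65% and 1.77%) and Wdfy4 (2.30% and 2.13%). Likeness was the distance between percentages over 2 libraries.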

How the data were processed

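H3K9me3 ChIP libraries of day 0 and day 3 (1 each) were analysed from the deposited lists of significant islands. The submitters' processing notes name Bowtie2, SICER 1.1 and the build mm10. Not given in the sources used here are the threshold, the gap size, the handling of duplicates and the use of the input. The value of each island was read as a count of reads, deposited by the authors without scaling, because it is whole and follows island length. All island borders fall on multiples of 200 bp. Coordinates were made 1-based. Gene bodies came from a RefSeq table of GRCm38.p6, the assembly of mm10, in which all 10 genes were found. Strand and start sites came from a RefSeq promoter table of the same assembly, which has no entry for Impact. An island was assigned to a body or window when it covered at least 1 bp. Bases of merged bodies or windows were counted 1 time. Read intervals are exact 95% Poisson intervals (scipy 1.17.1). Calculations used Python 3.11.15, numpy 2.4.6 and pandas 2.3.3, and the coverage code was tested on simulated islands. With 1 library per day no test was made, and intervals cover counting error in reads that are not independent molecules. The genes and lists were chosen with earlier results of these data known. Named genes were the 10 genes and the listed imprinted genes with an island in the body, and a non-predicted gene under an island of a window could be named. Maintenance genes and some marker genes are named besides. Genes most like Grb10, Plagl1 and Snrpn were the 3 nearest in percent covered among non-predicted protein-coding autosomal genes with bodies between 0.5 and 2 times as long. The listed symbols Zfp264 and Nespas were not found. Alternatives were other selections of islands, other overlaps, other flanks and scaling by the reads inside islands.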

Additional observations from a re-analysis of the deposited data

How the results depend on the processing

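No paired analysis was possible because each day has 1 library and no test was made. Body coverage is given for day 0, day 3 and the difference. With equal list lengths (19989 islands each), day 3 covered 25 kb of the bodies and the difference was -18.4 kb. With islands of at least the median density of their list, the values were 17, 29.4 and 12.4 kb, and with the common floor of 34.1 reads per kb 17 kb on day 0 and 24.1 kb for the difference, instead of -2.29 kb, so that both density limits turned the direction. The floor removed islands from day 0 alone and the equal lists from day 3 alone, so each could shift a difference in a single direction only. Both density limits left 3 genes with a body island on day 0 instead of 6, and the day 3 count was 2 or 3 under each choice. Windows had 101.6 kb on day 3 and a difference of -24.0 kb with equal lists, 72.6, 93.8 and 21.2 kb with the median limit, 72.6 kb on day 0 and a difference of 117.4 kb with the floor, 89.2, 107.2 and 18.0 kb with 50 kb flanks, and 175.8, 266.7 and 90.9 kb with 200 kb flanks, instead of 125.6, 190.0 and 64.4 kb. The median density was 36.8 and 56.8 reads per kb with the median limit (ratio 1.54) and 36.8 on day 0 with the floor (ratio 1.45). Scaled to the reads inside islands (RPM per kb) it was 10.5 on day 0 and 5.11 on day 3, a ratio of 0.488 instead of 1.49. That scaling divides by reads in called islands, which grow with the number of islands called.

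Differences (day 3 less day 0) that turned were, with equal lists, the windows of Meg3 (-4.0 kb), Snrpn (-6.2 kb), Mest (-2.0 kb) and Plagl1 (-7.8 kb) and the bodies of Phactr2 (-10.6 kb), Cobl (-20 kb), Jade1 (-0.464 kb), Calcr (-10.6 kb), Asb4 (-2.02 kb), Trappc9 (-8.2 kb), Kcnq1ot1 (-2.2 kb) and Setdb1 (-0.676 kb). With the median limit they were the windows of Grb10 (-0.8 kb), Impact (-6.2 kb) and Mest (-6.2 kb) and the bodies of Phactr2 (-3.0 kb), Cobl (-4.6 kb), Zdbf2 (8.0 kb), Jade1 (-0.464 kb) and Kcnq1 (10.4 kb). With the floor they were the bodies of Snrpn (9.11 kb), Zdbf2 (8.0 kb), Ppp1r9a (26.8 kb) and Kcnq1 (18.8 kb). With 50 kb flanks the windows of Meg3 (-7.27 kb) and Mest (-10.0 kb) turned, and with 200 kb flanks that of Gnas (4.8 kb). The cause was not tested. Of the 6 genes whose body coverage differed, all kept the sign with equal lists, and 4 did with each density limit. Equal lists removed islands from day 3 alone, so only Grb10 and Plagl1, covered more on day 3, could have turned. Their excess fell to 1.4 and 1.8 kb. The floor removed islands from day 0 alone, so neither of them could turn under it. The alternatives for genes outside the 10 were chosen after seeing the data.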

Other observations

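Of 6 genes that maintain imprints, Setdb1 had a body island on both days, of which 0.676 kb lay in the body on day 0 and 3.2 kb (9.50%) on day 3. Zfp57, Zfp445, Trim28, Dnmt1 and Uhrf1 had none on either day. A body island on both days was found for 13.1% of all genes. The windows of the 10 genes contain 23 miRNA hairpins of the RefSeq table, of which 19 lie in the Meg3 window, and no island touched any of them on either day. Of 919 autosomal hairpins in that table, 21 were touched on day 0 and 53 on day 3. Zc2hc1b and Phactr2, which lie beyond Plagl1, each had 2 islands inside its window on day 3, and on day 0 Phactr2 had 1 and Zc2hc1b none.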
